A study of Mus musculus with 4 samples.

Results

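The m6A peaks that lay in long coding exons in the interior of messenger RNAs were examined in mouse splenic natural killer (NK) cells, the lymphocytes that kill tumour and infected cells without prior immunization. A peak is a stretch of transcript whose fragments were enriched by an antibody against N6-methyladenosine (m6A). The members were the distinct peaks whose annotation named an internal exon, neither the first nor the last, of a protein-coding transcript of the peak's own gene, with an exon length of at least 400 nt in the GRCm38 gene models. This rule gave 200 peaks in 180 exons of 172 genes, out of 20727 distinct peaks. Another 1267 peaks named an internal exon under 400 nt and served for comparison. The peaks came from 4 libraries of C57BL/6 wild-type mice, 2 of m6A immunoprecipitated RNA and 2 of input RNA that was not immunoprecipitated. Both groups were poly(A) RNA of splenic NK cells, which by the study's methods were expanded in the mice with a plasmid that expresses IL-15 and then sorted, so that resting NK cells were not measured. The study worked with mice of 6 to 10 weeks. The deposited list holds 1 fold enrichment of immunoprecipitate over input and 1 p-value per peak, pooled over all libraries. No value per library could therefore be given, the depth behind a peak is unknown, and no error between replicates and no test could be computed. The intervals below are 95% intervals that cover only the number of peaks, exons or sites counted.

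m6A is placed on messenger RNA mainly by a nuclear complex built around METTL3 and METTL14, at adenosines in the sequence context DRACH (where D stands for any base but C, R for a purine and H for any base but G). In mammals the mark is known to be dense near stop codons, in 3′ untranslated regions (3′UTRs) and in unusually long internal exons, and sparse in coding exons of ordinary length, where proteins bound at exon junctions keep the complex away. An antibody peak marks a region of fragments, not a single modified base.

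To show what such peaks look like, 8 members are printed as they read on the strand of the gene, 5′ to 3′ (GRCm38). They are the members of at most 300 nt, wholly within coding sequence of the named exon, that had the lowest p-values among the genes singled out below for high fold enrichment, low p-value or their role, with 1 peak per gene. Capitals mark DRACH sites.

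Rgs3 (chr4:62690154-62690423, + strand): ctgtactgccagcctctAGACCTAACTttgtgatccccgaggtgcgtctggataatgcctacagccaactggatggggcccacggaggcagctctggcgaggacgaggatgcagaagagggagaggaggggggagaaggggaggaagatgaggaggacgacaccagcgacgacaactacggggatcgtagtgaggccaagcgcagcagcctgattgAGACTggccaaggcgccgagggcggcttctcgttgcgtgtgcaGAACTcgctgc
Kif3b (chr2:153317354-153317563, + strand): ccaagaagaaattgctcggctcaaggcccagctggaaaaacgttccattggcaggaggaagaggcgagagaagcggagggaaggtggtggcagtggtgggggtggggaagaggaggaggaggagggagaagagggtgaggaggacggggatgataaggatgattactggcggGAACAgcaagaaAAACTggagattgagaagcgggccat
Tnfaip3 (chr10:19004978-19005038, - strand): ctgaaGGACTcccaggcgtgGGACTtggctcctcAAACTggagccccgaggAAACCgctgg
Tnrc6b (chr15:80880443-80880683, + strand): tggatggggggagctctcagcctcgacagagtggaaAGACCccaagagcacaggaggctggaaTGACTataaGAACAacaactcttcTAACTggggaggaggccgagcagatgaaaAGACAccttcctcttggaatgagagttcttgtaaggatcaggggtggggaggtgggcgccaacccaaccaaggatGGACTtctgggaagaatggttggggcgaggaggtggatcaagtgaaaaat
Foxo3 (chr10:42275027-42275236, - strand): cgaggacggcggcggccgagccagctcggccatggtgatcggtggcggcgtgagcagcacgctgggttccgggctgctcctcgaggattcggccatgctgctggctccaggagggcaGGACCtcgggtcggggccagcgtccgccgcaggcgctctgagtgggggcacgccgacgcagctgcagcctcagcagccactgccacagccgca
Kdm6b (chr11:69404313-69404582, - strand): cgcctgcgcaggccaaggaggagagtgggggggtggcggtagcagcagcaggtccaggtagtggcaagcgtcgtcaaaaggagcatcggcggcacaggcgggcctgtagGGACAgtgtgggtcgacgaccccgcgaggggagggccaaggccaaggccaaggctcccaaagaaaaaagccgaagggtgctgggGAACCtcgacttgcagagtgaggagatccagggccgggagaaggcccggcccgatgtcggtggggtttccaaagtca
Setd1a (chr7:127795842-127796112, + strand): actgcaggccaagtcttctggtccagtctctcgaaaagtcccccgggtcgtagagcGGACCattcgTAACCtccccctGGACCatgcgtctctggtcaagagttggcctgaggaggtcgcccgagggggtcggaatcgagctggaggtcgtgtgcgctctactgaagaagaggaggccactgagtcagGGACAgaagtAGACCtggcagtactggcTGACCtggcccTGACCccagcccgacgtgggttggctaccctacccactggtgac
Tnrc6c (chr11:117723416-117723535, + strand): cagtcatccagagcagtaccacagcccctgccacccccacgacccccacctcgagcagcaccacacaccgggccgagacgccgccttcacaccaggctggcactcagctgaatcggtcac

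The sequences run from purine-rich to cytosine-rich. The peak of Rgs3, a regulator of G-protein signalling, and that of Kif3b, a motor subunit of kinesin-2, both hold long runs of GAG and GGA, with 4 and 2 DRACH sites. The peak of Tnfaip3, which encodes the NF-κB inhibitor A20, was only 61 nt long and held 4 DRACH sites, 2 of which read GGACT, the sequence that the methyltransferase is known to favour. The longer peak of Setd1a, a histone H3 lysine 4 methyltransferase, held 7, and that of Tnrc6b, a partner of Argonaute in microRNA silencing, held 6. The peak of Foxo3, a forkhead transcription factor, was rich in GC and held 1. The peak of Kdm6b, a histone H3 lysine 27 demethylase, held 2. The peak of Tnrc6c, the close relative of Tnrc6b, held no DRACH site in its 120 nt.

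The exons that carried the members had a median length of 1064.5 nt, with an interquartile range of 664.75 to 1809.5 nt and a range of 414 to 9837 nt. Most of them held a single peak (163 of 180), 15 held 2 and 2 held at least 3, with at most 4 in 1 exon. All 200 members overlapped the named exon wholly within coding sequence, as the annotation tool by default names UTRs before exons, and 148 of them lay in exons that were coding from end to end. Exon 2 of the transcript held 50 members (25%) and the penultimate exon held 29 (14.5%), with 7 in an exon that was both. These shares were not compared with those of all long internal exons, so they show no preference. With the coding sequence split into 3 equal stretches, 62 members were centred in the first, 81 in the middle and 57 in the last. As the rule leaves out last exons and UTR labels, this spread cannot show whether peaks gather at the end of the reading frame.

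The fold enrichment of the members was moderate. Its median was 2.795 (interval 2.24 to 3.32), with an interquartile range of 1.63 to 5.69 and a range of 1.1 to 79.7. A fold enrichment of at least 5, the level that the study used to choose genes and called strong here, was reached by 61 members (30.5%, Wilson interval 24.5 to 37.2%), against 34.6% of all distinct peaks. A peak-calling p-value under 0.001 was reached by 72 members (36.0%, interval 29.7 to 42.9%), against 61.5% of all distinct peaks and 60.4% of the peaks in short internal exons. Members were thus strong about as often as the whole list, and fewer of them had a low p-value. The median of the short-exon peaks was 2.44 (interval 2.15 to 2.74) and its interval overlapped that of the members. The 11046 peaks labelled 3′UTR had a median of 2 and 17.4% of them were strong.

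**Figure D1:**
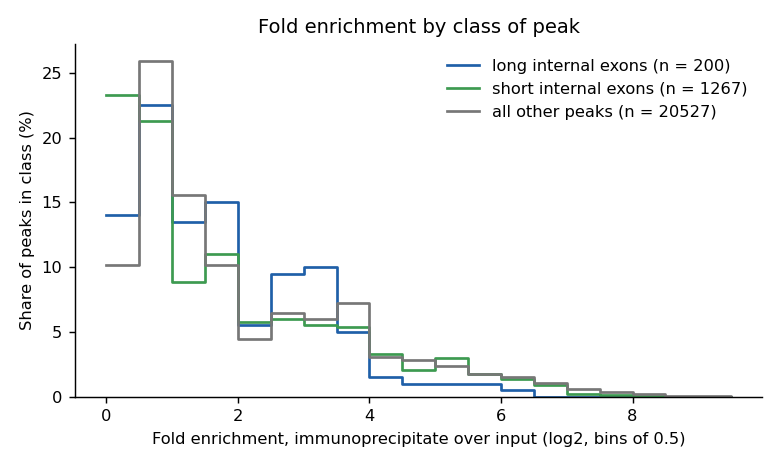
Share of peaks in each class (%, vertical axis) by log2 fold enrichment in bins of 0.5 (horizontal axis), for the 200 peaks in long internal exons, the 1267 in short internal exons and the 20527 other peaks. The 3 distributions overlap over most of their range, and the lowest bin holds 14% of the members and 23.3% of the short-exon peaks.

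Whether a peak stayed within its exon separated the members into unlike sets. The span of 146 members (73.0%) lay wholly inside the named exon, with a median width of 150 nt. Their median fold enrichment was 2.245 (interval 2.01 to 2.84) and 32 of them (21.9%, interval 16.0 to 29.3%) were strong. The other 54 left the exon, nearly always at its 3′ end (52 of 54), with a median genomic span of 1960.5 nt of which a median of 99 nt lay in the exon. Their median fold enrichment was 5.69 (interval 3.35 to 9.48) and 29 of them (53.7%) were strong. Of the 54, 35 touched at least 2 exons of the transcript, and in all 35 the named exon was the first of those touched. Of the short-exon peaks, 746 touched at least 2 exons, and the named exon was the first in 745. In both classes the label thus nearly always names the first exon touched, which puts the rest of such a span past its 3′ end. In 16 of the 54, under 50% of the exonic bases lay in the exon that the annotation named, and 10 lay entirely within an exon of another isoform. The fold enrichment of a member that leaves the exon is thus that of the whole span, not of the exon alone.

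In short internal exons the proportion was turned around. Of the 1267 peaks, 144 (11.4%) lay wholly inside the named exon, and these had a median fold enrichment of 1.53 (interval 1.39 to 1.65), with 4 strong peaks (2.78%, interval 1.09 to 6.92%). Compared between peaks wholly inside their exon, the members had the higher median, by 0.715. Peaks of this kind were narrower in short exons, with a median of 90 nt. The widest reached 271 nt, against 1231 nt for members inside. An exon under 400 nt has no room for wider peaks, and the part of this filter in the difference was not tested. Over all short-exon peaks, 31.6% were strong. Without the filter, the median of long minus short was 0.355 (interval -0.5 to 1.17), and -2.245 in genes with both classes. The share with a p-value under 0.001 was similar, 31.5% (interval 24.5 to 39.4%) of the members inside and 34.0% (interval 26.8 to 42.1%) of the short-exon peaks inside.

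Among members wholly inside their exon with a p-value under 0.001, Rrbp1 (ENSMUSG00000027422), which encodes a ribosome-binding protein of the endoplasmic reticulum, had the highest fold enrichment, 60.7 (log10 p -82.8). Its peak covered 1231 of 2119 nt of exon 2 of 24 (chr2:143988372-143989602) and held 42 DRACH sites. The gene is known for a tandem repeat in its coding sequence, to whose copies reads cannot be assigned with certainty. Hirip3 (ENSMUSG00000042606), a partner of the histone chaperone HIRA, reached 11.7 (log10 p -22.3) over 360 of 1082 nt of exon 4 of 7 (chr7:126863559-126863918). Kif3b (ENSMUSG00000027475) reached 10.6 (log10 p -8.47) over 210 of 1468 nt of exon 2 of 9. Zc3h13 (ENSMUSG00000022000) encodes a zinc-finger subunit of the m6A methyltransferase complex itself. Its peak reached 9.42 (log10 p -43.1) and covered 69.7% of exon 12 of 19, which is 601 nt long (chr14:75327628-75328046). Rgs3 (ENSMUSG00000059810) reached 6.2 (log10 p -42.4) over 270 of 1128 nt of exon 11 of 16.

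Of the 5 members with the lowest p-values, Rrbp1 and Zc3h13 lay inside their exon and the other three left it. Jmjd1c (ENSMUSG00000037876), a member of the JmjC histone demethylase family, had the lowest of all, a log10 p of -94.9 at 16.1-fold enrichment (chr10:67220616-67224844). Only 20 of its 301 exonic nt lay in exon 8 of 10, the named exon. Recql4 (ENSMUSG00000033762), a RecQ DNA helicase, had a fold enrichment of 40.2 (log10 p -70.4), with 23 of 360 exonic nt in exon 5 of 22. Slc35e2 (ENSMUSG00000042202), of a family of nucleotide sugar transporters, had 39.8 (log10 p -66) with 310 of 539 exonic nt in exon 2 of 9. The member with the highest fold enrichment of all, named after its value was seen, was Nav2, a neuronal navigator gene, at 79.7 (log10 p -23.5), with 183 of 595 exonic nt in the named exon.

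**Figure D2:**
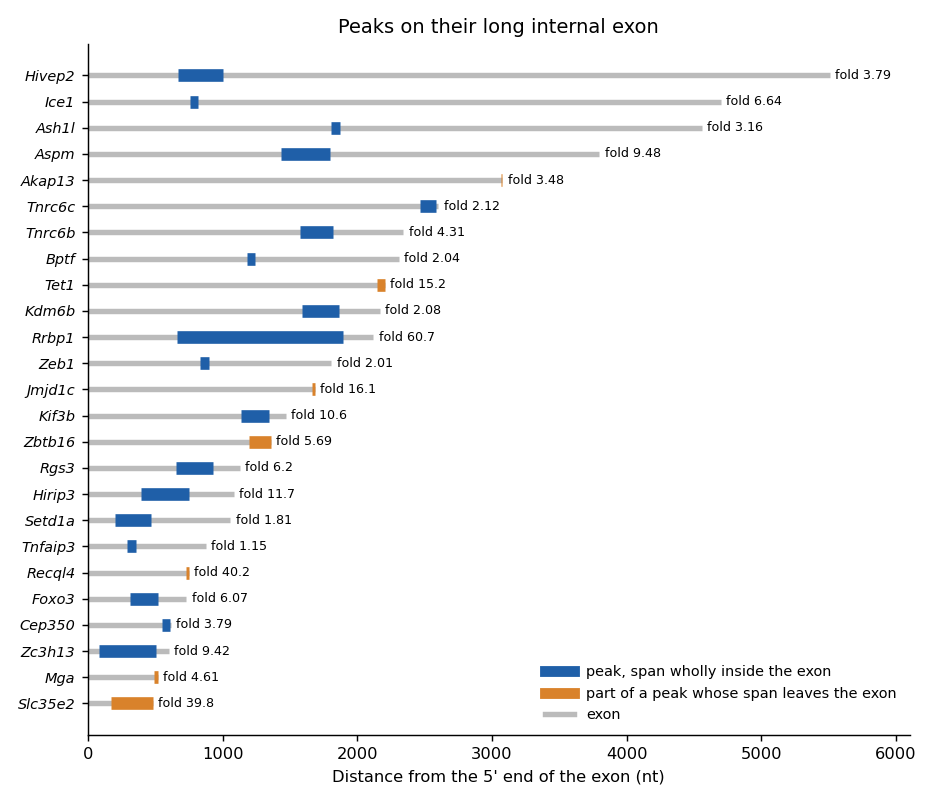
Position of named peaks (thick bars) on their exons (grey lines), in nt from the 5′ end of the exon (horizontal axis), with exons in order of length from Hivep2 (5506 nt) to Slc35e2 (481 nt) and the fold enrichment printed beside each. Blue peaks lie wholly inside the exon and orange bars show the part in the exon of peaks that leave it, which sit against the 3′ end. The longer exons of Stard9 and Cmya5 are not drawn.

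Fold enrichment and p-value did not order the members alike. The 72 members with a p-value under 0.001 had a median fold enrichment of 1.785, below that of all members, and 18 of them (25%) were strong. Of the 61 strong members, 18 (29.5%) had a p-value under 0.001, compared with 54 of the 139 weaker ones (38.8%). The strong members also left their exon more often, with 32 of 61 inside (52.5%, interval 40.2 to 64.5%) against 114 of 139 (82.0%, interval 74.8 to 87.5%). The same fold enrichment (9.48) and the same log10 p (-1.69) recurred together in 16 members, and 53 members shared both values with another. Members that were inside their exon, strong and under a p-value of 0.001 numbered 7.

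**Figure D3:**
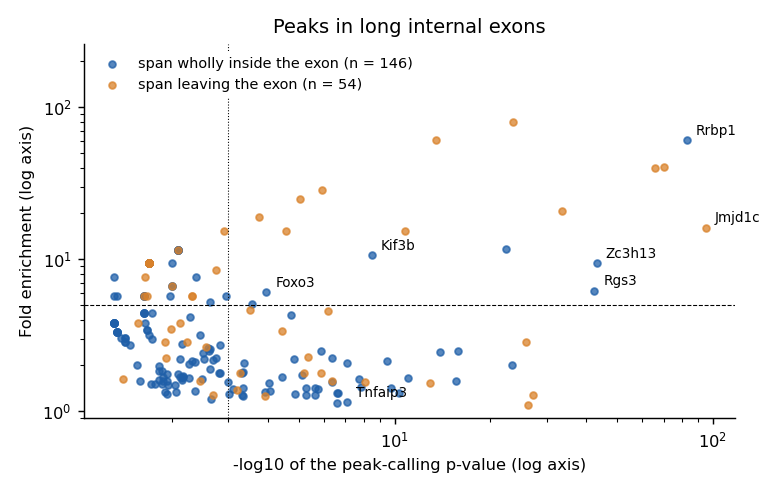
Fold enrichment (vertical axis, log scale) against -log10 of the peak-calling p-value (horizontal axis, log scale) for the 200 members, blue where the span lies inside the exon and orange where it leaves it. The dashed line marks a fold enrichment of 5 and the dotted line a p-value of 0.001, and 7 blue points lie past both.

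The share of exons that carried a peak increased with exon length. Among genes with any peak, 2752 internal coding-gene exons were at least 400 nt long, in 2114 genes, and 180 of these exons held a member (6.54%, interval 5.68 to 7.53%). Where forms of an exon overlapped they were merged and given the length of the longest. For the comparison of lengths, a merged exon counted as named if a label named any of its forms, also a form under 400 nt, which gave 183 exons from 400 nt. The share so named was 0.854% of exons under 100 nt, 1.32% from 100 to under 200 nt, 2.09% from 200 to under 400 nt, 3.72% from 400 to under 800 nt, 9.12% from 800 to under 1600 nt and 15.6% (interval 12.1 to 19.8%) from 1600 nt. A longer exon offers more sequence, and per kb the peaks that named an exon did not increase, from 0.118 under 100 nt to 0.0938 from 800 to under 1600 nt and 0.0641 from 1600 nt. Counted by where peaks lay, the order differed. Peaks wholly inside the named exon went from 0.00203 per kb under 100 nt to 0.0716 from 800 to under 1600 nt and 0.0523 from 1600 nt, although a peak of a given width has less room inside a short exon. Peaks of the gene with their centre in the exon, under any annotation, went from 0.0321 per kb under 100 nt to 0.115 from 800 to under 1600 nt and 0.0822 from 1600 nt. Per kb, the exons of 800 to under 1600 nt thus held more centres than either the shorter or the longer classes. The midpoint of a span that crosses introns can fall in an intron, and it then counts for no exon. Of the 1267 short-exon peaks 1123 left their exon, and the part of this in the order was not tested.

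**Figure D4:**
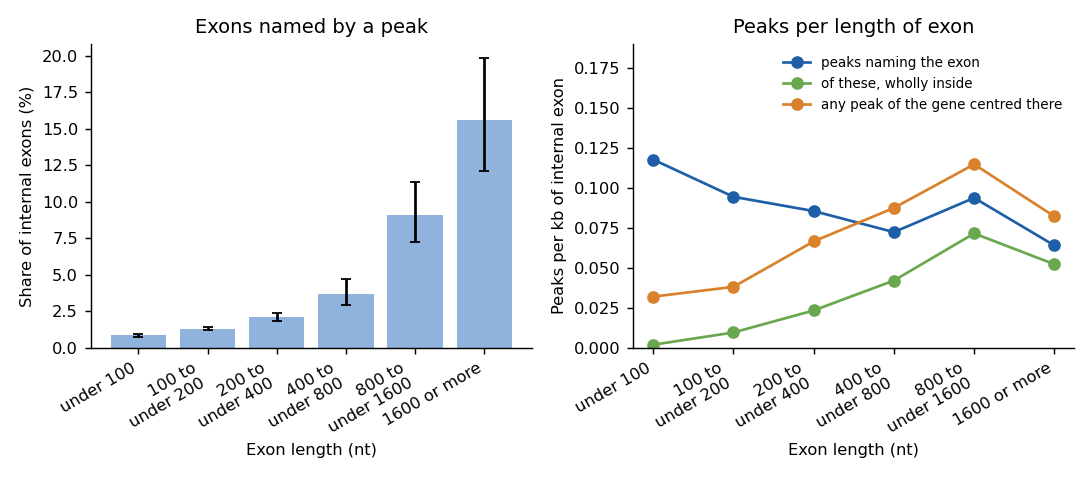
Left, share of internal exons (%, with 95% Wilson intervals) named by a peak, by exon length in nt, rising from 0.854% to 15.6%. Right, peaks per kb of internal exon in the same classes, for peaks naming the exon (blue), those of them wholly inside it (green) and any peak of the gene centred there (orange), the last highest at 0.115 per kb for exons of 800 to under 1600 nt.

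Not every peak in a long internal exon was labelled as such. Of 251 peaks of the gene that were centred in a long internal exon, 152 (60.6%) were members. Another label was given to many of the rest, with 37 of the 251 labelled 5′UTR and 35 labelled 3′UTR. Among the members themselves, the fold enrichment did not follow exon length in 1 direction. The median was 3.075 in 36 members with exons of 400 to under 600 nt, 2.225 in 52 at 600 to under 1000 nt, 2.84 in 67 at 1000 to under 2000 nt and 3.79 in 45 from 2000 nt.

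Within their exon, members that stayed inside lay much as the room in the exon allowed. With the exon split into 3 equal stretches, 32 of the 146 were centred in the first, 63 in the middle (43.2%, interval 35.4 to 51.3%) and 51 in the last. Moving each peak along its own exon through every position that keeps it inside would put 41.3% of centres in the middle stretch. The centre was a median of 297.25 nt from the nearer exon end (interquartile range 180.125 to 509 nt). At least 200 nt separated it from both ends in 105 of 146 members (71.9%, interval 64.1 to 78.6%), and in 71.6% of all possible positions. With the peaks that left the exon included, 99 of 200 members (49.5%) were centred in the last stretch, 48 of them peaks that left the exon.

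A higher density of DRACH sites in the members than in the rest of the same exons was not detected. The parts of exons under members held 677 sites in 33874 nt, or 19.99 per kb, and the parts under no peak held 21.4 per kb, a ratio of 0.935 (exact binomial interval 0.862 to 1.01). Without Rrbp1, whose peak alone held 42 sites, the ratio was 0.909 (interval 0.836 to 0.988). At least 1 DRACH site was present in 86.0% of members and in 85.1% of windows of the same length in the same exons, counted over every position. The shorter motif GGAC, which lies within part of the DRACH sites and was also counted where no A, C or T followed, was denser in members, at 5.96 against 4.75 per kb (ratio 1.26, interval 1.07 to 1.46). It was found in 54.0% of members and 49.9% of windows. For GGACT the ratio was 1.23 (interval 0.876 to 1.69), with 18% of members and 16.8% of windows. In the 72 members with a p-value under 0.001 the GGAC ratio was 1.26 with an interval of 0.985 to 1.60, and the GGACT ratio was 0.705 (interval 0.336 to 1.34), with 12.5% of members and 14.6% of windows. All motifs were read on the strand of the gene. The reverse complement GTCC, counted in the same way, gave 1.04 (interval 0.859 to 1.24). In short internal exons the ratios were 0.986 for DRACH (interval 0.925 to 1.05) and 1.11 for GGAC (interval 0.970 to 1.27). The GC content was 56.6% under members and 52.9% in the rest of their exons, and its part in the GGAC ratio was not tested. The A of GGAC fell at the second position of a codon in 114 of 202 sites under members (56.4%) and in 54.4% of sites in the rest of the exons.

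Members with the lower p-values differed from their exons in purine content, a measure chosen after the printed sequences had been seen. A and G together made up 59.8% of the sequence under the 72 members with a p-value under 0.001 and 53.1% of the rest of their exons, and the peak was the higher of the pair in 58 of 72. For the 128 members with higher p-values the figures were 52.7% and 53.1%, with the peak higher in 64. The difference was wider among members inside their exon with a p-value under 0.001, at 63.8% against 54.7%, with the peak higher in 41 of 46. Zc3h13 was the most purine-rich of the named genes, with 87.1% in the peak and 70.3% in the rest of its exon. The peak and the rest were at 78.1% and 65.8% in Hirip3, 77.1% and 59.2% in Rrbp1, 75.7% and 56.0% in Kif3b and 61.1% and 47.1% in Rgs3. Of the 7 members inside their exon, strong and under a p-value of 0.001, the peak was higher in 6. The exception was Foxo3, at 53.3% against 53.5%. Without Rrbp1, the longest of these peaks, the 71 other members with a p-value under 0.001 stood at 58.1% against 53.0%. The GC content of the 72 members was also higher than in the rest of their exons, at 59.8% against 54.6%, in 50 of 72. Over all members, whatever their p-value, purines stood at 55.7% against 53.1%, with the peak higher in 122 of 200. Over all peaks in short internal exons they stood at 55.0% against 54.0%, with the peak higher in 556 of 1105 compared. Short-exon peaks with a p-value under 0.001 were not examined apart.

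**Figure D5:**
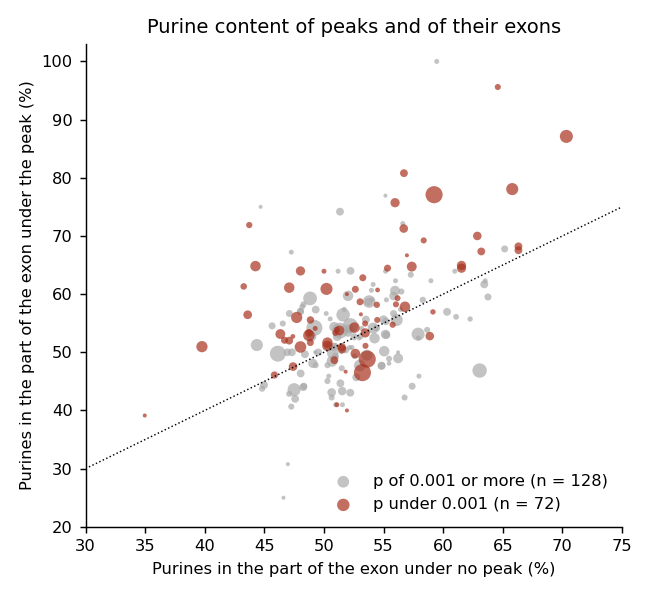
Purine content (A and G, %) of the part of the exon under each member (vertical axis) against that of the part of the same exon under no peak (horizontal axis), with larger points for longer parts and the dotted line at equality. Of the members with a p-value under 0.001 (red), 58 of 72 lie above the line, and of those with a higher p-value (grey) 64 of 128 do.

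The genes were next grouped by role. Of the 2114 genes with a long internal exon and any peak, 172 (8.14%) held a member. In the list of chromatin regulators, which holds histone and DNA modifying enzymes, remodellers and cofactors but also some DNA-binding transcription factors such as Mga and Hivep2, it was 11 of 50 (22.0%, interval 12.8 to 35.2%). Their 14 peaks had a median fold enrichment of 3.475, against 2.795 for all members. The longest internal exon of these 50 genes had a median of 1304.5 nt, against 742.5 nt over the 2114 genes, and the part of exon length in the share was not tested. In the peak of Tet1 (ENSMUSG00000047146), a 5-methylcytosine dioxygenase, the fold enrichment was 15.2 (log10 p -4.54), with 56 of 480 exonic nt in the named exon. Mga, a MAX-binding transcription factor, had 4.61 (log10 p -3.52) with 25 nt in the exon. The peaks of Kdm6b (ENSMUSG00000018476, 2.08, log10 p -3.36) and Bptf, a nucleosome remodelling subunit (2.04, log10 p -2.25), lay inside exons of 2168 and 2308 nt. The others, given to complete the list, were Ash1l and Setd2, histone H3 lysine 36 methyltransferases, Kmt2a, a histone H3 lysine 4 methyltransferase, Bcorl1, a transcriptional corepressor, and Hivep2, a zinc-finger transcription factor.

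Setd1a (ENSMUSG00000042308) held the most members of any exon, 4 within exon 14 of 19, which is 1056 nt long. They formed 2 nearly identical pairs, a pair of 271 and 270 nt with fold enrichments of 1.81 and 1.78 (log10 p -3.34 and -3.32) and a pair of 91 and 90 nt at 1.68 and 1.7 (log10 p -2.16 for both), so that the exon carried 2 separate enriched stretches. Scaf1 (ENSMUSG00000038406), an SR-related splicing factor, held 3 separate members in its exon 7 of 11, at 2.15, 1.39 and 1.55 (log10 p -9.48, -5.75 and -3). Setbp1, which encodes a SET-binding protein, held 2 in an exon of 3448 nt, at 2.84 and 3.79.

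The genes for RNA processing and m6A proteins held a member in 3 of 22 (13.6%, interval 4.75 to 33.3%), Zc3h13 and the Argonaute partners Tnrc6b and Tnrc6c. Tnrc6b (ENSMUSG00000047888) had a fold enrichment of 4.31 (log10 p -4.71) over 241 of 2340 nt of exon 8 of 25. Tnrc6c (ENSMUSG00000025571) had 2.12 (log10 p -2.35), with the peak ending 15 nt before the 3′ end of a 2601 nt exon.

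Lymphocyte transcription factors held a member in 3 of 23 (13.0%, interval 4.54 to 32.1%). Foxo3 (ENSMUSG00000048756) had a fold enrichment of 6.07 (log10 p -3.95) over 210 of 730 nt of exon 2 of 4. Zbtb16, which encodes PLZF, the factor of innate-like lymphocytes, had 5.69 (log10 p -2.31), with 162 nt in the exon and a genomic span of 88361 nt. Zeb1, a zinc-finger repressor, had 2.01 (log10 p -1.55). In cytokine and immune signalling it was 2 of 17 (11.8%, interval 3.29 to 34.3%). Tnfaip3 (ENSMUSG00000019850) had a low fold enrichment, 1.15 (log10 p -7.08), in exon 7 of 9. Akap13, which anchors protein kinase A, had 3.48 (log10 p -1.98) with 13 nt in an exon of 3076 nt, and another member at 4.43.

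Genes of mitosis and cell division held a member in 2 of 15 (13.3%, interval 3.74 to 37.9%). Aspm, a spindle pole protein gene, had 9.48 (log10 p -2) over 360 of 3795 nt. The centrosomal gene Cep350 had 3.79 (log10 p -1.64), and another member in another exon at 3.03 (log10 p -1.38). No gene of the list for DNA repair and replication held a member (0 of 13, upper bound 22.8%). Members did lie in Recql4, Ercc5, Fan1, Ticrr and Pif1, genes of repair or replication that were not on the list. The count thus describes the genes listed, not the class. The intervals of all 6 lists were wide. The lists were chosen with earlier results of these data known, so a share above or below 8.14% is not independent evidence about a list.

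The longest exons with a member lay in Stard9, a kinesin gene (9837 nt), and Cmya5, a gene of striated muscle (9310 nt). Their peaks had fold enrichments of 9.48 (log10 p -1.69) and 11.4 (log10 p -2.09) and covered 151 and 241 nt. In Hivep2 (5506 nt), Ice1, a scaffold of the little elongation complex (4698 nt), and Ash1l (4558 nt), the fold enrichments were 3.79, 6.64 and 3.16, with log10 p of -1.31, -2 and -1.69. None of these 5 peaks had a p-value under 0.001. At the threshold of 400 nt, the members just inside were Igsf8 (414 nt, fold enrichment 1.25), Matn1 (417 nt, 9.48) and Nat8f4 (422 nt, 8.53), and the peaks just outside were Fam234b (fold enrichment 18.4) and Tapbp (1.25), both 1 nt short of it, and Slc27a1 (395 nt, 9.48).

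Most genes with a member carried peaks elsewhere too. Of the 172 genes, 108 also had a peak labelled 3′UTR, about the same share as among all genes with a peak (7718 of 12351). In these 108 genes the highest fold enrichment belonged to the member in 46 and to the 3′UTR in 58, with 4 ties. The medians in these genes were 2.67 for the member and 2.335 for the 3′UTR. In 38 genes (22.1%) the member was the only kind of peak, with a median fold enrichment of 3.79, compared with 2.47 in the genes with other peaks.

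All 11 NK cell marker genes checked, among them Ncr1, Eomes and Prf1, had a peak. Of the markers of other cells, 4 of 6 for T cells, 3 of 5 for B cells, 5 of 5 for myeloid cells and 2 of 3 for erythroid cells also did. Peaks were assigned to 12351 genes in all, so these counts alone do not tell cell types apart. A peak shows that a transcript was present in the RNA, not how much, and the part of other cells in the members was not tested. The parts of 6 members also overlapped an exon of another gene, to which their fragments could belong.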

How the data were processed

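Poly(A) RNA of mouse splenic NK cells was fragmented and sequenced with and without m6A immunoprecipitation, in 2 libraries each. By the study's methods, the authors aligned reads with HISAT2, called peaks with exomePeak and annotated them with ChIPseeker on GRCm38. The deposited list gives a fold enrichment (a ratio of immunoprecipitate to input) per peak. It also gives a deposited score that is the log10 of the unadjusted peak-calling p-value, with a weakest value of -1.3. It has no column of a single library. The list had 20751 rows, of which 24 were exact repeats and were dropped.

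The exon named in each label was looked up in GENCODE gene models for GRCm38, in transcript order. Of 1716 internal exon labels of the peak's own gene, 2 named a transcript not found there, and 1467 named a protein-coding one. The part of a peak in the exon was compared with the part under no peak. Printed sequences come from the GENCODE transcripts, and 8 of 8 were identical to the genome. Medians have exact binomial intervals and shares have Wilson intervals, at 95%. Python 3.11.15, pandas 2.3.3, numpy 2.4.6 and scipy 1.17.1 were used, and the counting was tested on simulated data.

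Members and gene lists were chosen with earlier results of these data known. Genes were named by a rule: the 5 members with the highest fold enrichment among those inside the exon with a p-value under 0.001, the 5 lowest p-values, at most 6 genes per list by p-value, the 5 longest exons, at most 3 exons with the most members, and the 3 exons on either side of 400 nt. The alternatives tried changed the exon length, thresholds, motif, position and comparison set.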

Additional observations from a re-analysis of the deposited data

How the results depend on the processing

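Of 49 alternatives to 7 results, 12 moved the value and 7 reversed it. In the other 30, a count stayed within 1.5 times its value, a median or share stayed within its interval, or a ratio or difference kept its direction. The number of members, 200, became 428 with exons of at least 200 nt, 112 with exons of at least 1000 nt, 72 with a p-value under 0.001, 127 with a fold enrichment of at least 2 and 61 with at least 5. The median fold enrichment of 2.795 became 1.785 with a p-value under 0.001. The share of strong members, 30.5%, became 21.9% for peaks inside the exon, 47.0% with a threshold of 3 and 10.5% with a threshold of 10. The share of long internal exons with a peak, 6.54%, became 7.96% with any peak centred in the exon, 2.36% with a p-value under 0.001 and 3.56% over all protein-coding genes.

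The density of DRACH in members over the rest of the exon, 0.935, passed to the other side of 1 with other motifs: 1.26 for GGAC, 1.23 for GGACT and, chosen after seeing the data, 1.04 for GTCC, 1.25 for GGAC with 1 of overlapping peaks and 1.28 for GGAC without Rrbp1. With DRACH itself every alternative stayed under 1, and the interval of the main ratio, 0.862 to 1.01, included 1. The median fold enrichment of long minus short internal exons was 0.355 (range -0.5 to 1.17 from opposite ends of both median intervals). It became -0.255 with a p-value under 0.001 and -2.245 in genes with both classes (32 against 31 peaks). The causes were not tested.

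The list has no value per library, so the depth behind each peak is unknown and leaving out a replicate could not be done. No paired analysis was possible because the list has no column per library and no result comes from a test. A list with a single fold enrichment per peak cannot show how far that value varies between replicates. Without exon blocks, the enriched exon of a multi-exon peak is not known.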
